A study of Mus musculus with 12 samples.

Results

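Skin that received TSeL without added L was set against skin that received TL+L, to ask which genes of TSeL lay outside the spread of the TL+L samples and which neutrophil genes lay inside it. The comparison takes 6 of the 12 samples of the series by their treatment label, 3 TSeL and 3 TL+L. All are whole skin of mice of the albino inbred strain BALB/C, with an age of 8 weeks in the series text, and 3 samples that received PBS (phosphate-buffered saline) are given beside them. The labels do not say what TSeL, TL and L stand for, and the groups differ both in the TSeL or TL part and in the added L, so those differences cannot be told apart. Nor do they say that each sample came from its own animal, so every p below measures the spread between these samples only.

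The 6 columns held 16630580 to 17213394 estimated reads each, and 15791 of 18858 genes were tested. The 3 columns read as TSeL were near-repeats of one another: between pairs of them the median chi-square over genes was 1.12 to 1.17 times its chance value, against 8.87 to 37.5 times between TL+L samples. They were averaged and counted as 1 sample, so TSeL has no spread of its own and every value of it is that of 1 library. On the first principal component (66.4% of the variance) TSeL lay at -60.6, while the TL+L samples lay at 85.8, 9.76 and 87.3, with replicate 2 far from the other two. The skin markers were in place in every library: Krt5 and Krt14, keratins of the basal epidermis, stood at 2349 and 2439 CPM (counts scaled to a common library size) in TSeL, and at 1811 to 3461 and 2208 to 3745 CPM in TL+L.

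Neutrophils are short-lived white cells that leave the blood for inflamed skin along gradients of CXC chemokines, which they sense through Cxcr2. They carry ready-made antimicrobial proteins in granules, hold large amounts of the calprotectin subunits S100a8 and S100a9 in the cytosol, and make oxidants through the NADPH oxidase. In a whole-skin sample fewer cells of a type and less RNA per cell cannot be told apart.

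No gene passed the test between TSeL and TL+L. At a Benjamini-Hochberg adjusted p under 0.05, edgeR's quasi-likelihood test called 0 of 15791 genes (0%), and the smallest adjusted p was 0.117. At an unadjusted p under 0.05 it counted 3292 genes (20.8%), 2039 higher in TSeL (12.9%) and 1253 lower (7.93%). DESeq2 called 1771 genes, 1063 higher and 708 lower. Limma-voom called 0, with 3039 at an unadjusted p under 0.05. A permutation of 1 sample against 3 cannot give a one-sided p under 0.25.

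The TL+L sample left in or out decided that count. When TL+L replicate 2 was left out, edgeR called 3132 genes, 2047 higher in TSeL (13.0% of the 15748 tested) and 1085 lower (6.89%), and the smallest adjusted p was 0.00688. Without TL+L replicate 1 or 3 it called 0. The differences below are therefore given first by where the TSeL level fell among the TL+L samples, and as log2 fold changes with 95% intervals from the fit of all samples.

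By position, TSeL lay above the highest TL+L sample for 5446 genes (34.5%), below the lowest for 4438 (28.1%) and within the range for 5907 (37.4%). Of the 12877 genes that reached 5 CPM in TSeL or in the TL+L mean, 595 stood at least 2-fold above the highest TL+L sample (4.62%) and 413 at least 2-fold below the lowest (3.21%). Scaled to library totals instead of TMM factors, these counts were 382 above and 618 below, and the median over all genes was -0.30 on the log2 scale in place of 0.02. They were 1270 above and 861 below without TL+L replicate 2. The genes far above included 13 of 26 myosin chain genes and 6 of 7 troponin genes. The genes far below included 51 of 51 hair keratin-associated protein genes, 29 of 39 keratin genes and 10 of 16 late cornified envelope genes.

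**Figure D1:**
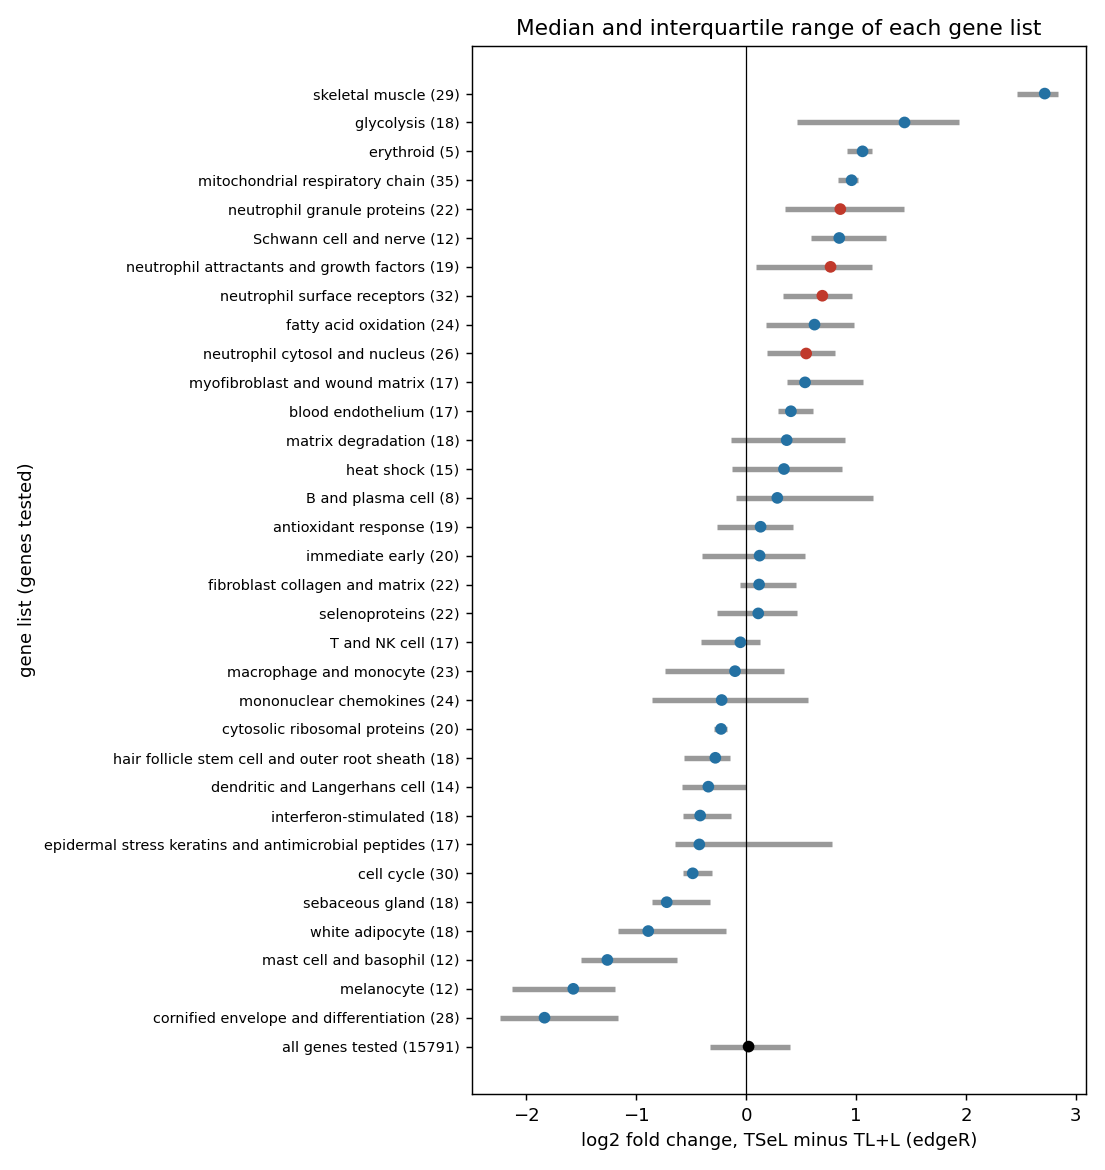
Each row is a gene list, with the number of genes tested in brackets; the dot is the median log2 fold change (TSeL minus TL+L, x axis) and the bar the interquartile range. Neutrophil lists are red, all genes are black at the bottom, and the hair shaft list (median -8.72) is left out because it would compress the axis. Skeletal muscle has the highest median, 2.72, and the cornified envelope the lowest of those drawn, -1.83.

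Neutrophil genes sat slightly higher in TSeL than in TL+L as a group, and most were either inside the TL+L range or just above it. Of the 80 neutrophil genes tested, out of 81 listed for granules, surface receptors and the cytosol or nucleus, 33 lay within the TL+L range, 46 above it and 1 below it, against 37.4%, 34.5% and 28.1% of all genes. Of those 46, 32 were less than 1.5-fold above the highest TL+L sample. Their median log2 fold change was 0.68, with 73 of 80 above 0, against 0.02 over all genes, and 0 passed the test. At an unadjusted p under 0.05, 11 of the 80 were higher and 1 was lower, a share of higher genes near the 12.9% of all genes.

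The position of the neutrophil genes turned on TL+L replicate 2, which held the highest TL+L level for 61 of the 80. Of the 33 genes inside the range, 21 were above both other TL+L samples. With that sample left out, 11 lay within the range and edgeR called 25 neutrophil genes higher and 1 lower, against 13.0% and 6.89% of all genes in that fit; with library totals 49 lay within. Other tissues also differed between the libraries. Fibroblast matrix genes took 2.97% to 3.02% of counts in the TSeL columns, against 1.55%, 5.31% and 3.10% in TL+L. White adipocyte genes took 0.387% to 0.388% in TSeL, against 0.237%, 0.621% and 0.269% in TL+L. That adipocyte share is a sum, and single genes differed from it. Adipoq (37.6 CPM in TSeL, against 43.5, 156 and 46.9 in TL+L), Plin1 and Fabp4 were each below every TL+L sample. Of 18 adipocyte genes 11 were below the TL+L range, 3 above and 4 within it, against 28.1%, 34.5% and 37.4% of all genes. Skeletal muscle genes took 15.05% to 15.13% in TSeL, against 1.11%, 5.02% and 2.08% in TL+L. Replicate 2 had the largest TL+L share of all 3 lists, and the part of these tissues in the neutrophil result was not tested.

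The calprotectin genes were among those inside the range. S100a8 had 1743 CPM in TSeL, against 1854, 1035 and 414 CPM in TL+L and 2686, 2467 and 1560 CPM in PBS. S100a9 had 1759 CPM in TSeL, against 2788, 1393 and 639 CPM in TL+L and 4003, 3678 and 2496 CPM in PBS. In both genes TSeL stood between the highest and the second TL+L sample, and the TL+L samples spanned more than 4-fold, so the interval of the difference was wide: -1.07 to 2.40 for S100a8 and -1.64 to 1.90 for S100a9 on the log2 scale.

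A few neutrophil genes were close by a stricter measure, an interval of the difference that stayed within a 2-fold change either way. There were 6 of these among the 80 (41.8% of all genes tested met the same measure): Lrg1, Hp, Ltb4r1, G0s2, Hcar2 and Mxd1. Lrg1, a glycoprotein stored in neutrophil granules and also made by other tissues, had 43.0 CPM in TSeL, against 49.1, 42.1 and 36.7 CPM in TL+L, a log2 fold change of 0.01 (-0.48 to 0.50). Hp, the haemoglobin-binding haptoglobin, had 309 CPM in TSeL, against 397, 224 and 338 CPM in TL+L (log2 fold change -0.05, -0.98 to 0.88).

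Both TSeL values sat inside the TL+L samples and far below PBS, where Lrg1 had 126, 130 and 108 CPM and Hp 1327, 1244 and 849 CPM. Ltb4r1, the receptor for leukotriene B4, had 26.2 CPM in TSeL, against 33.6, 22.1 and 26.1 CPM in TL+L. Hcar2, a niacin receptor, had 52.2 CPM in TSeL, against 44.7, 53.6 and 42.5 CPM in TL+L, and G0s2, an inhibitor of adipose triglyceride lipase, 14.9 CPM in TSeL, against 14.7, 15.8 and 11.2 CPM in TL+L. Mxd1, a transcriptional repressor of the Myc network, was just above the range at 149 CPM in TSeL, against 140, 138 and 111 CPM in TL+L.

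**Figure D2:**
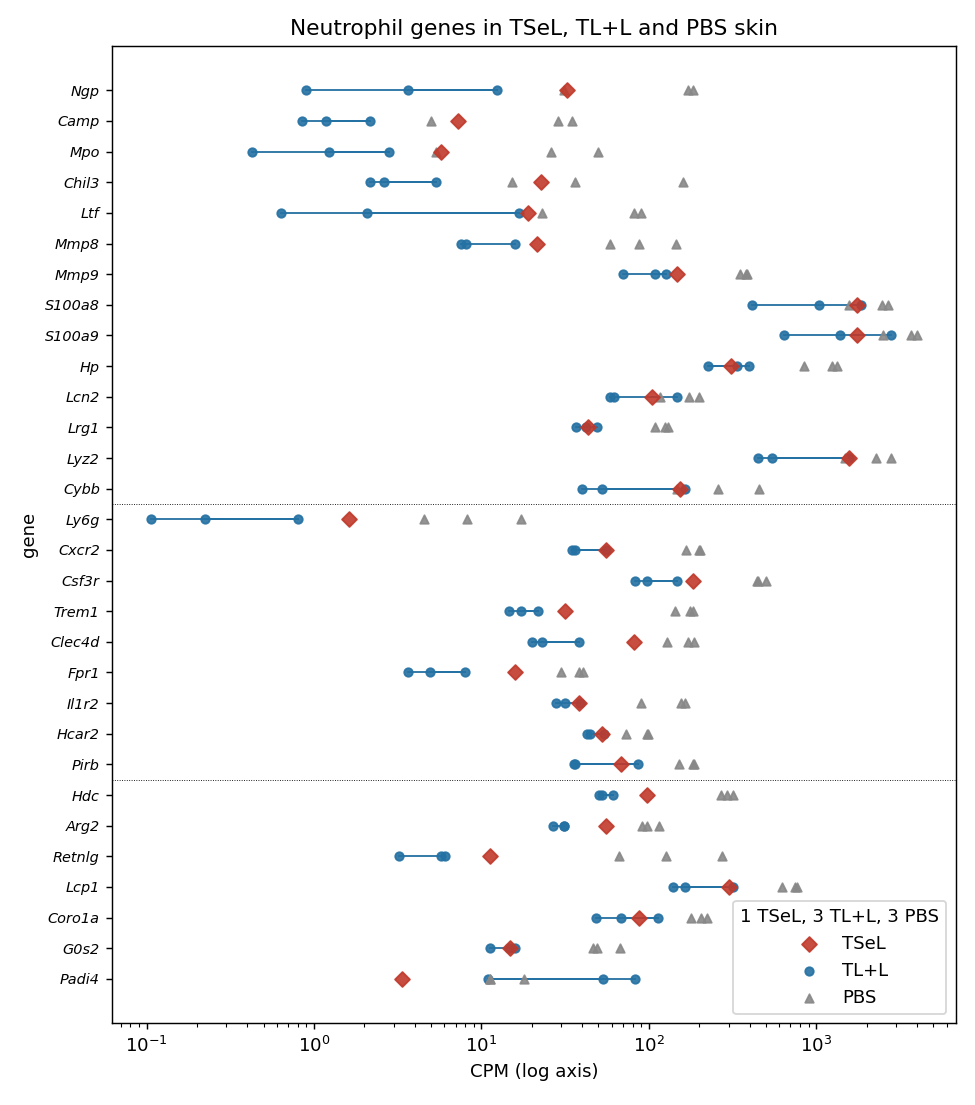
CPM (log axis) of 30 neutrophil genes in TSeL (diamond, 1 sample), TL+L (circles joined by a line, 3 samples) and PBS (triangles, 3 samples); dotted lines part granule proteins and oxidase, surface receptors, and cytosol or nucleus genes. The TSeL diamond lies on the TL+L line for S100a8, S100a9, Hp, Lcn2, Lrg1, Lyz2 and Cybb, to the right of it for Ngp, Camp, Mpo and Chil3, and to the left for Padi4.

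Other abundant genes inside the range followed TL+L replicate 2. Lyz2, the myeloid lysozyme, had 1559 CPM in TSeL, against 446, 1570 and 541 CPM in TL+L. Cybb, the membrane subunit of the NADPH oxidase, had 154 CPM in TSeL, against 39.7, 165 and 52.4 CPM in TL+L. Each of these TSeL values was near TL+L replicate 2 and well above the other TL+L samples.

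The same held for Lcp1, an actin-bundling protein of leukocytes, with 302 CPM in TSeL, against 165, 319 and 139 CPM in TL+L, and for Pirb, an inhibitory receptor, with 68.1 CPM in TSeL, against 36.2, 86.1 and 35.8 CPM in TL+L. Coro1a, an actin regulator of leukocytes, had 87.1 CPM in TSeL, against 67.9, 113 and 48.4 CPM in TL+L. Lcn2, an iron-siderophore binding protein that keratinocytes also make, differed from these: it had 104 CPM in TSeL, against 148, 58.4 and 62.0 CPM in TL+L, with replicate 1 the highest. With replicate 2 left out, the log2 fold changes were 1.66 for Lyz2, 0.99 for Lcp1 and 0.92 for Pirb. In the fit of all samples they were 0.87, 0.54 and 0.37. Replicate 2 was the highest TL+L sample for each of these genes, so a larger difference without it is no separate support.

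The granule proteins that neutrophil precursors make in the bone marrow were among the neutrophil genes farthest above TL+L, at low levels. Among 22 granule genes, 13 were above the TL+L range and 9 within it, against 34.5% and 37.4% of all genes. Their median log2 fold change was 0.86, and 4 were at least 2-fold above (4.62% of the genes that reached 5 CPM). Ngp, neutrophilic granule protein, had 32.4 CPM in TSeL, against 0.901, 12.5 and 3.63 CPM in TL+L (log2 fold change 2.52, -0.41 to 5.46). Camp, the precursor of the antimicrobial peptide cathelicidin, had 7.27 CPM in TSeL, against 0.848, 2.16 and 1.17 CPM in TL+L (2.38, 0.09 to 4.67). The groups did not overlap for either gene, but the adjusted p was 0.306 for Ngp and 0.226 for Camp.

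Mpo, the myeloperoxidase of primary granules, had 5.73 CPM in TSeL, against 0.424, 2.79 and 1.23 CPM in TL+L. Chil3, a chitinase-like protein of granules that macrophages also make, had 22.8 CPM in TSeL, against 2.17, 5.35 and 2.62 CPM in TL+L. In PBS these genes were spread widely, with 183, 172 and 31.3 CPM for Ngp and 160, 36.4 and 15.2 CPM for Chil3, and TSeL lay within the PBS range for Ngp, Camp, Mpo and Chil3. Ltf, lactoferrin of secondary granules, had 19.1 CPM in TSeL, against 0.636, 16.8 and 2.06 CPM in TL+L, above the highest TL+L sample by less than the spread of that group.

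Cytosolic subunits of the NADPH oxidase lay just above TL+L. Ncf1 had 66.9 CPM in TSeL, against 19.8, 53.2 and 21.8 CPM in TL+L, and Ncf4 43.3 CPM in TSeL, against 16.2, 36.1 and 14.7 CPM in TL+L. Their adjusted p was 0.293 and 0.306. Both were called without TL+L replicate 2, with log2 fold changes of 1.68 and 1.49.

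Of 32 surface receptor genes, 18 were above the TL+L range and 14 within it, against 34.5% and 37.4% of all genes. Their median log2 fold change was 0.69. All 32 were below the lowest PBS sample, where 33.4% of all genes were. Clec4d, a C-type lectin receptor of myeloid cells, had 81.7 CPM in TSeL, against 20.1, 38.1 and 22.9 CPM in TL+L and 128, 172 and 186 CPM in PBS. Among receptors that reached 5 CPM it was the one at least 2-fold above the range (log2 fold change 1.60, 0.74 to 2.45, adjusted p = 0.117). Fpr1, a receptor for formylated bacterial peptides, had 15.9 CPM in TSeL, against 3.66, 8.03 and 4.91 CPM in TL+L, and Trem1, an amplifier of myeloid activation, 31.5 CPM in TSeL, against 17.2, 21.7 and 14.6 CPM in TL+L. For all 3 the TSeL level lay between the TL+L and the PBS samples.

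Of the receptors that define neutrophils, Cxcr2 and Csf3r lay just above the range. Cxcr2, the chemokine receptor, had 55.6 CPM in TSeL, against 36.3, 55.5 and 34.8 CPM in TL+L and 198, 167 and 201 CPM in PBS. Csf3r, the receptor for granulocyte colony-stimulating factor, had 184 CPM in TSeL, against 97.3, 148 and 82.3 CPM in TL+L and 441, 451 and 500 CPM in PBS. Ly6g, the usual surface marker of mouse neutrophils, was low in both groups, with 1.61 CPM in TSeL, against 0.106, 0.797 and 0.223 CPM in TL+L, and its log2 fold change of 2.09 had a wide interval (-0.45 to 4.63). The median log2 fold change of 10 defining markers was 1.36. Summed over these 10, TSeL had 3819 CPM, against 4785, 2672 and 1182 CPM in TL+L and 7947, 7236 and 4892 CPM in PBS, so the sum lay within the TL+L range while 8 of the single genes were above it. S100a8 and S100a9 make up most of that sum.

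Of 26 cytosolic and nuclear neutrophil genes, 15 were above the TL+L range, 10 within it and 1 below it. The shares of all genes were 34.5%, 37.4% and 28.1%, and the median log2 fold change of the 26 was 0.55. Hdc, which makes histamine, had 96.8 CPM in TSeL, against 52.6, 60.9 and 50.1 CPM in TL+L (log2 fold change 0.83, 0.42 to 1.24). Arg2, the mitochondrial arginase, had 55.2 CPM in TSeL, against 26.6, 31.1 and 30.9 CPM in TL+L (0.90, 0.47 to 1.33). Both had an adjusted p of 0.117, and without TL+L replicate 2 both were called, at 0.0137 and 0.0200.

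Padi4 was the exception. This enzyme, which turns arginine into citrulline in histones of neutrophil traps, had 3.36 CPM in TSeL, against 52.9, 10.9 and 82.9 CPM in TL+L and 18.0, 11.3 and 11.3 CPM in PBS. It stood below every TL+L and PBS sample, with a log2 fold change of -3.86 (-6.77 to -0.96, adjusted p = 0.156), and without TL+L replicate 2 it was called at -4.33 (adjusted p = 0.00775). Its order among the TL+L samples was that of the hair shaft genes, whose summed level was 266 CPM in TSeL, against 23109, 5912 and 43064 CPM in TL+L; the part of hair tissue in the Padi4 difference was not tested.

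Several chemokines that draw neutrophils lay above TL+L. Of 19 attractants and growth factors tested, 11 were above the TL+L range, 7 within it and 1 below it, against 34.5%, 37.4% and 28.1% of all genes. Cxcl1, Cxcl2, Cxcl3 and Il6 were at least 2-fold above, against 4.62% of the genes that reached 5 CPM. At an unadjusted edgeR p under 0.05, 7 were higher and 1 lower, against 12.9% and 7.93% of all genes. The median log2 fold change was 0.77. Cxcl1, a ligand of Cxcr2, had 61.9 CPM in TSeL (59.3, 64.2 and 62.2 in the 3 columns), against 14.3, 12.4 and 14.6 CPM in TL+L and 147, 76.9 and 78.0 CPM in PBS. The TL+L samples lay close together, and the log2 fold change was 2.17 (1.32 to 3.02).

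Cxcl2, which activated myeloid cells release, had 65.73 CPM in TSeL, against 29.46, 19.98 and 28.62 CPM in TL+L (1.34, 0.61 to 2.07). Cxcl3, a related Cxcr2 ligand, had 93.3 CPM in TSeL, against 44.1, 28.3 and 31.7 CPM in TL+L (1.43, 0.66 to 2.19). Il6, the acute-phase cytokine, had 8.81 CPM in TSeL, against 1.48, 1.76 and 2.40 CPM in TL+L (2.22, 0.76 to 3.68). All of these had an adjusted p between 0.117 and 0.131, and each TSeL level lay above every TL+L sample and below every PBS sample.

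Cxcl5, the epithelial ligand of Cxcr2, was just under 2-fold above the range, at 104 CPM in TSeL, against 52.0, 54.7 and 38.2 CPM in TL+L and 248, 277 and 290 CPM in PBS. Il1b, the inflammasome-processed interleukin, had 385 CPM in TSeL, against 203, 242 and 164 CPM in TL+L and 889, 739 and 1265 CPM in PBS. Without TL+L replicate 2, Cxcl1, Cxcl2, Cxcl3 and Cxcl5 were called, with adjusted p from 0.0149 to 0.0418, and so was Ppbp, a platelet chemokine with 11.3 CPM in TSeL, against 0.636, 12.4 and 2.12 CPM in TL+L.

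Not every attractant lay that way. The interleukin-17 genes were inside the range: Il17a had 8.53 CPM in TSeL, against 11.6, 3.47 and 3.01 CPM in TL+L, and Il17f 4.34 CPM in TSeL, against 16.5, 3.70 and 1.51 CPM in TL+L. Il1f9 (interleukin-36 gamma, made by keratinocytes) had 88.1 CPM in TSeL, against 142, 127 and 61.8 CPM in TL+L. Il1f6 (interleukin-36 alpha) was below the range, at 11.8 CPM in TSeL, against 32.4, 40.9 and 18.4 CPM in TL+L.

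**Figure D3:**
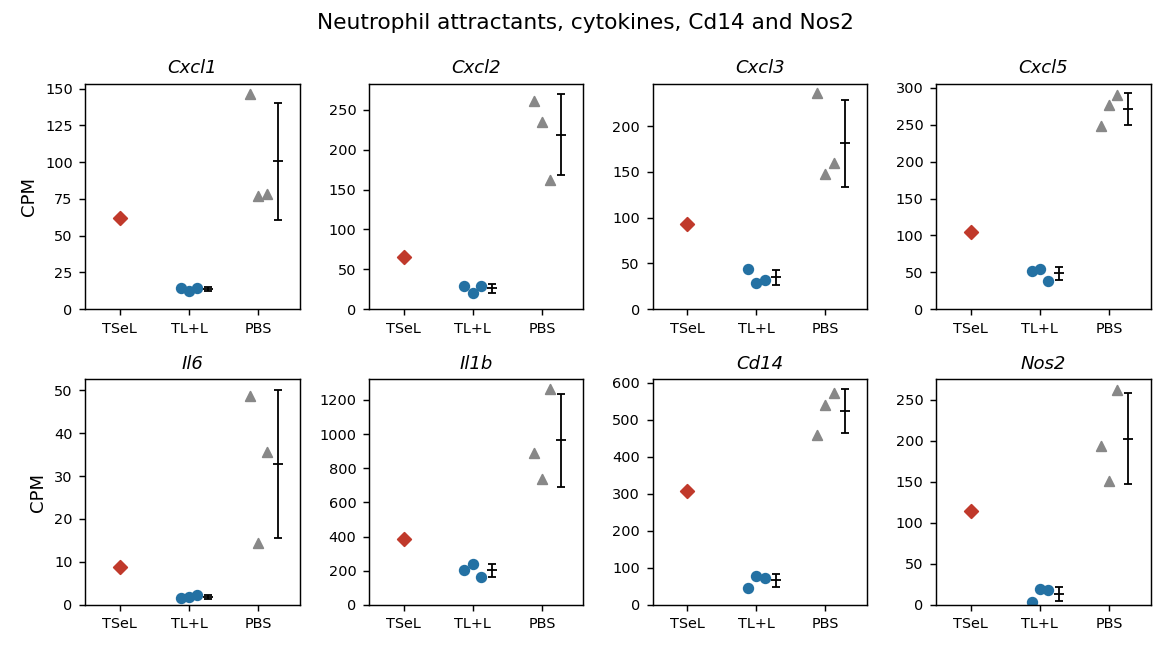
CPM (y axis, from 0) of 8 genes in TSeL (1 sample), TL+L and PBS (3 samples each; black marks are mean ± SD). In every panel TSeL lies above the 3 TL+L samples and below the 3 PBS samples, for example 61.9 CPM of Cxcl1 against 12.4 to 14.6 in TL+L and 76.9 to 147 in PBS.

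The promoters of Cxcl1, Cxcl2, Cxcl3 and Il6 are shown because these were the attractants at least 2-fold above TL+L, and because NF-kappaB, the transcription factor of the Toll-like and interleukin-1 receptor pathways, is known to drive their genes. Each line gives the 120 bases before the transcription start (RefSeq, GRCm38.p6, all on the plus strand): chr5:90891125-90891244 for Cxcl1, chr5:90903779-90903898 for Cxcl2, chr5:90785981-90786100 for Cxcl3 and chr5:30012994-30013113 for Il6. The lines run 5′ to 3′. Capitals mark the longest run of letters that the 250 bases before the start of Cxcl1, Cxcl2 and Cxcl3 share, GGGAATTTCCC, a form of the letters NF-kappaB is known to bind, and in Il6 a run that differs from it at 1 letter.
Cxcl1: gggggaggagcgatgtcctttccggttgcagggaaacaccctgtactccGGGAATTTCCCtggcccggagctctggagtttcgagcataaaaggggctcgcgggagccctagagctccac
Cxcl2: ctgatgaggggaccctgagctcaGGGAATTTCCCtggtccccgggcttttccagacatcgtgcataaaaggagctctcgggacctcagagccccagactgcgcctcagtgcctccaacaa
Cxcl3: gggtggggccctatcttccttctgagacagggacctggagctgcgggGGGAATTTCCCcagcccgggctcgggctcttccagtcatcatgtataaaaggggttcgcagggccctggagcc
Il6: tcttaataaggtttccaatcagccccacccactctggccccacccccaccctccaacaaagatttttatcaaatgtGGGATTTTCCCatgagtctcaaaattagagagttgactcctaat

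The run began 71 bases before the start in Cxcl1, 97 in Cxcl2, 73 in Cxcl3 and 44 in Il6. Searched on both strands over 300 bases (250 before to 50 after the start), the exact run was in 14 of 27025 genes of the table. With 1 mismatch allowed it was in 185 of them (0.685%) and in 4 of the 15 attractant genes with a sequence (26.7%), namely these 4; since 3 of the 4 supplied the letters, that share is a description. Among the neutrophils' own genes it was in 2 of 18 granule genes (Olfm4 and S100a9), 0 of 27 receptor genes and 0 of 21 cytosol and nucleus genes. The genes were chosen with their values known, and a match is a run of letters, not a site shown to be bound.

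Macrophage genes were more often below the TL+L range than above it, with a median near 0. Of 23, 4 were above the range, 10 below and 9 within it, against 34.5%, 28.1% and 37.4% of all genes. Their median log2 fold change was -0.10 and turned positive without TL+L replicate 2. Their summed level was 1922 CPM in TSeL, against 1226, 2128 and 1623 CPM in TL+L. Adgre1 (the F4/80 marker) had 47.1 CPM in TSeL, against 26.2, 86.4 and 25.5 CPM in TL+L, and Csf1r, the receptor that macrophages need to survive, 168 CPM in TSeL, against 94.8, 223 and 127 CPM in TL+L.

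Single genes of this list were far outside. Cd14 (gene ID 12475), the co-receptor for bacterial lipopolysaccharide, had 308 CPM in TSeL (310, 311 and 301 in the 3 columns), against 45.7, 79.1 and 73.2 CPM in TL+L and 458, 540 and 573 CPM in PBS, a log2 fold change of 2.22 (1.52 to 2.93, adjusted p = 0.117). Spp1, osteopontin, had 267 CPM in TSeL, against 27.3, 76.3 and 82.2 CPM in TL+L. Nos2, the inducible nitric oxide synthase, had 114 CPM in TSeL, against 3.23, 19.2 and 17.6 CPM in TL+L. These were above every TL+L sample, and Retnla, a gene of interleukin-4 activated macrophages, was below: 2.66 CPM in TSeL, against 8.58, 8.26 and 8.70 CPM in TL+L (log2 fold change -1.68, -2.46 to -0.90) and 1.46, 2.21 and 1.95 CPM in PBS.

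Among the chemokines of monocytes and lymphocytes, 5 of 24 were above the TL+L range and 9 below it, against 34.5% and 28.1% of all genes. Ccl3 and Ccl4, chemokines that macrophages release, were above: Ccl3 had 19.8 CPM in TSeL, against 1.11, 7.51 and 5.80 CPM in TL+L, and Ccl4 7.34 CPM in TSeL, against 2.97, 4.16 and 3.57 CPM in TL+L. Ccl8 was below, with 82.9 CPM in TSeL, against 158, 151 and 118 CPM in TL+L. Mast cell genes were mostly below, 9 of 12 (28.1% of all genes), with a median log2 fold change of -1.26. At least 2-fold below were 3, against 3.21% of the genes that reached 5 CPM. Cpa3, carboxypeptidase of mast cell granules, had 4.90 CPM in TSeL, against 21.8, 28.6 and 13.0 CPM in TL+L, and the tryptase Tpsb2 7.133 CPM in TSeL, against 16.85, 25.85 and 15.01 CPM in TL+L.

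Genes of late epidermal differentiation were lower in TSeL. The cornified envelope is the protein shell that keratinocytes build as they die to form the skin surface. Of 28 genes of this list, 25 were below the TL+L range (28.1% of all genes) and 0 above. At least 2-fold below were 14, against 3.21% of the genes that reached 5 CPM. The median log2 fold change was -1.83, and 19 were lower at an unadjusted edgeR p under 0.05 (7.93% of all genes). The 28 genes took 0.327% to 0.332% of counts in the TSeL columns, against 0.911%, 1.22% and 1.00% in TL+L and 0.671%, 0.805% and 0.630% in PBS.

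Spink5 (gene ID 72432), an inhibitor of the proteases that shed the horny layer, had 52.2 CPM in TSeL, against 172, 194 and 179 CPM in TL+L and 156, 158 and 144 CPM in PBS. Its log2 fold change was -1.80 (-2.21 to -1.39), the smallest p of any lower gene, with an adjusted p of 0.117. Cdsn, corneodesmosin, which holds cornified cells together, had 33.8 CPM in TSeL, against 196, 206 and 349 CPM in TL+L, and Dsg1a, a desmosomal cadherin, 72.0 CPM in TSeL, against 347, 338 and 561 CPM in TL+L. In each the TSeL level lay below every TL+L and every PBS sample.

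The other lower genes with the smallest p were in none of the gene lists, apart from Cdsn. Calml3, an epithelial calmodulin-like protein, had 60.4 CPM in TSeL, against 242, 186 and 253 CPM in TL+L, and Crct1, a gene of the epidermal differentiation complex, 36.8 CPM in TSeL, against 160, 125 and 179 CPM in TL+L. Pof1b, an actin-binding protein of epithelia, had 23.1 CPM in TSeL, against 120, 103 and 148 CPM in TL+L. Smpd3, a neutral sphingomyelinase, had 17.6 CPM in TSeL, against 51.0, 60.3 and 55.7 CPM in TL+L. Lypd5 (11.5 CPM in TSeL, against 62.1, 71.8 and 104 in TL+L) and Rnf225 (8.46 CPM in TSeL, against 30.4, 29.5 and 26.7 in TL+L) completed the 8 with the smallest p.

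Of the keratins, the suprabasal pair lay below the range and the basal pair inside it. Krt10 had 487 CPM in TSeL, against 1061, 2450 and 1623 CPM in TL+L (log2 fold change -1.81), and its partner Krt1 1443 CPM in TSeL, against 2321, 3713 and 2285 CPM in TL+L (-0.94). Without TL+L replicate 2, edgeR called 14 of the 28 envelope genes. In that fit it called 19.9% of all genes, 6.89% of them as lower. Among the 14 were Spink5 and Cdsn, which had an adjusted p of 0.00688 and 0.00818.

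**Figure D4:**
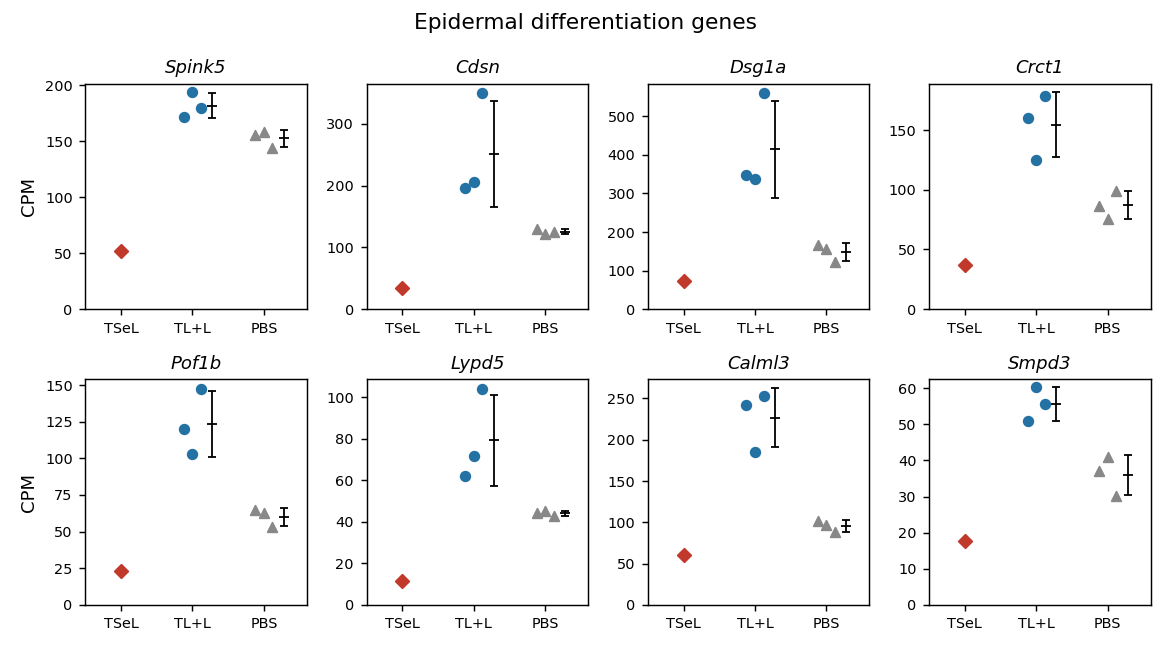
CPM (y axis, from 0) of 8 epidermal genes in TSeL (1 sample), TL+L and PBS (3 samples each; black marks are mean ± SD). TSeL is the lowest in every panel, for example 52.2 CPM of Spink5 against 172 to 194 in TL+L and 144 to 158 in PBS.

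Hair shaft and inner root sheath genes, which are on while a follicle is growing a hair, were nearly absent from TSeL. All 33 tested were below the TL+L range (28.1% of all genes), 32 of them at least 2-fold (3.21% of the genes that reached 5 CPM). The median log2 fold change was -8.72, or -8.55 with the 12 genes at 0 in TSeL set to the bound that 3 counts give. The 33 genes took 0.0222% to 0.0233% of counts in the TSeL columns, against 2.54%, 0.617% and 4.48% in TL+L and 0.0248%, 0.00512% and 0.217% in PBS. In TSeL 26 of the 33 lay inside the PBS range, where 29.1% of all genes did. In the main fit edgeR called 0 of the 33, and the smallest adjusted p in the list was 0.153, for Padi3. Without TL+L replicate 2 it called 2 of the 33, where 6.89% of all genes were called lower. DESeq2 called 29 of them, and 708 of 15791 genes lower in all. Krtap8-1, a keratin-associated protein of the hair cortex chosen after its values were seen, had 0 counts in TSeL, against 11153, 906 and 26167 counts in TL+L, at least 3341-fold lower.

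Several regulators of the follicle were also below TL+L, at higher levels. Foxn1, the transcription factor missing in nude mice, had 6.92 CPM in TSeL, against 79.0, 17.2 and 99.4 CPM in TL+L, and Gata3, which directs the inner root sheath, 36.4 CPM in TSeL, against 112, 54.3 and 117 CPM in TL+L. Of 18 genes of follicle stem cells and the outer root sheath, 6 were below the range, 10 within it and 2 above, against 28.1%, 37.4% and 34.5% of all genes. Lgr5 (8.46 CPM in TSeL, against 43.9, 23.1 and 35.8 in TL+L) and Krt15 (79.0 CPM in TSeL, against 331, 183 and 288 in TL+L) were below, and the transcription factor Nfatc1 was above, at 70.2 CPM in TSeL, against 25.1, 43.2 and 27.3 CPM in TL+L. Pigment cell genes, which are transcribed in albino follicles too, were below the range for 8 of 12 (28.1% of all genes), with a median of -1.57. Ednrb, the endothelin receptor of melanocytes, had 28.5 CPM in TSeL, against 68.8, 42.3 and 83.7 CPM in TL+L.

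Skeletal muscle genes showed the opposite. All 29 were above the TL+L range (34.5% of all genes) and above every PBS sample (37.5%), with a median log2 fold change of 2.72. At least 2-fold above TL+L were 28 of them, against 4.62% of the genes that reached 5 CPM. The 29 genes took 15.05% to 15.13% of counts in TSeL, against 1.11%, 5.02% and 2.08% in TL+L and 5.18%, 3.77% and 1.99% in PBS. Acta1, skeletal alpha-actin, had 19063 CPM in TSeL, against 1258, 5602 and 2405 CPM in TL+L, and Trdn, a protein of the calcium release unit, 633 CPM in TSeL, against 39.1, 160 and 56.4 CPM in TL+L. The adjusted p of Trdn, the smallest in the list, was 0.124. Without TL+L replicate 2 edgeR called all 29, where 13.0% of all genes were called higher.

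**Figure D5:**
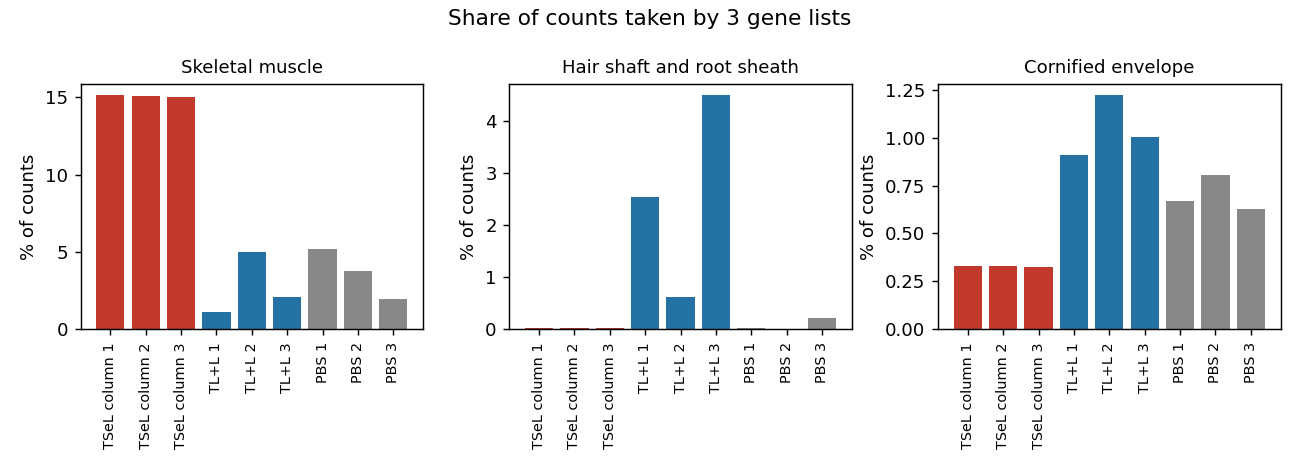
Percent of all counts (y axis, from 0) taken by the skeletal muscle, hair and cornified envelope lists in each of the 3 TSeL columns, 3 TL+L samples and 3 PBS samples. Muscle takes 15.05% to 15.13% in TSeL and at most 5.18% elsewhere, and hair genes are low in TSeL and PBS and 0.617% to 4.48% in TL+L.

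Energy metabolism genes were above TL+L as well. All 35 nuclear genes of the respiratory chain were above the range (34.5% of all genes), 0 of them by 2-fold, with a median of 0.96. Cox6c, a subunit of cytochrome oxidase, had 290 CPM in TSeL, against 155, 169 and 148 CPM in TL+L. Of 18 glycolysis genes 15 were above, 11 at least 2-fold (4.62% of the genes that reached 5 CPM), with a median of 1.44. Hk2, a hexokinase, had 281 CPM in TSeL, against 92.8, 128 and 89.4 CPM in TL+L, and Pgk1, phosphoglycerate kinase, 1305 CPM in TSeL, against 471, 562 and 414 CPM in TL+L. The muscle share above differed in the same direction, and its part in these differences was not tested.

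Fatty acid oxidation genes were above the range for 16 of 24 (34.5% of all genes). The muscle carnitine transferase Cpt1b had 226 CPM in TSeL, against 18.8, 92.1 and 28.1 CPM in TL+L. For Cpt1b the TSeL level lay above every TL+L sample. Nerve sheath genes were above the TL+L range for 10 of 12, against 34.5% of all genes. White adipocyte genes were mostly below, 11 of 18 (28.1% of all genes), with Lep, leptin, at 0.559 CPM in TSeL, against 7.21, 2.56 and 3.01 CPM in TL+L. Slc2a4, the insulin-responsive glucose transporter of fat and muscle, was above, at 193 CPM in TSeL, against 18.9, 77.0 and 33.4 CPM in TL+L.

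Fibroblast matrix genes all lay inside the TL+L range, 22 of 22, and all 22 below the lowest PBS sample. That range was wide, with TL+L shares of counts from 1.55% to 5.31%. An interval within a 2-fold change either way was met by 3 of the 22, against 41.8% of all genes. Col1a1, a chain of type I collagen, had 5112 CPM in TSeL, against 1893, 7133 and 4575 CPM in TL+L and 10116, 11115 and 12979 CPM in PBS. Myofibroblast and wound matrix genes were above the range for 11 of 17, and matrix-degrading genes for 9 of 18, against 34.5% of all genes. Inhba, the activin A subunit, had 87.1 CPM in TSeL, against 13.4, 24.3 and 27.0 CPM in TL+L. Plaur, the urokinase receptor, had 46.15 CPM in TSeL, against 16.64, 20.72 and 20.09 CPM in TL+L. Both were above every TL+L sample.

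Cell cycle genes lay low in TSeL by small amounts: all 30 had a log2 fold change below 0, with a median of -0.49. Of these, 16 were below the TL+L range (28.1% of all genes), none by 2-fold. Ccnd1, cyclin D1, had 46.4 CPM in TSeL, against 112, 86.5 and 97.3 CPM in TL+L, and the proliferation marker Mki67 158 CPM in TSeL, against 289, 169 and 248 CPM in TL+L.

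The gene with the smallest p of all was Cebpd (gene ID 12609), a transcription factor of the acute-phase response. It had 86.2 CPM in TSeL, against 31.7, 31.5 and 33.8 CPM in TL+L and 85.8, 87.6 and 85.0 CPM in PBS, a log2 fold change of 1.41 (1.11 to 1.71, adjusted p = 0.117). TSeL was inside the PBS range and well clear of TL+L. Socs3, the feedback inhibitor of interleukin-6 signalling, had 190 CPM in TSeL, against 113, 112 and 111 CPM in TL+L and 318, 353 and 345 CPM in PBS. Nfkbia, the inhibitor that NF-kappaB induces, had 202 CPM in TSeL, against 123, 103 and 114 CPM in TL+L and 285, 301 and 226 CPM in PBS.

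Of the other higher genes with the smallest p, Cd14 is given with the macrophage genes. Satb1, a chromatin organizer, had 59.09 CPM in TSeL, against 15.79 to 21.01 CPM in TL+L and 35.1, 31.1 and 33.5 CPM in PBS. Homer1, a scaffold protein of synapses and muscle, had 51.3 CPM in TSeL, against 16.2, 21.3 and 18.0 CPM in TL+L, and Avil, an actin-binding protein of sensory neurons, 9.72 CPM in TSeL, against 1.70, 2.11 and 1.62 CPM in TL+L. These TSeL levels were above every TL+L and PBS sample. Ktn1 (243 CPM in TSeL, against 103, 116 and 111 in TL+L), the ubiquitin-conjugating enzyme Ube2b (287 CPM in TSeL, against 114, 129 and 120 in TL+L) and the autophagy protein Atg9a (113 CPM in TSeL, against 55.3, 56.7 and 56.5 in TL+L) made up the rest.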

How the data were processed

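Poly(A) RNA from frozen skin was sequenced. The authors deposited expected counts (estimated reads per gene), made with Bowtie2 and RSEM among other tools per the submitters' processing notes. Versions, genome build and strand setting: not given in the sources used here. The 24 columns of length-scaled values were not used here. Column codes were matched to labels; TS was read as TSeL and TSL as TSeL+L, and every TSeL value depends on that reading. Of the deposited expected counts 88.7% were whole (tolerance 0), and all were rounded. The transcript table was not used here.

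The fit had 8 samples (3 PBS, 3 TL+L, the means of 3 TSeL and of 3 TSeL+L columns), 1 coefficient per group and 4 residual degrees of freedom: filterByExpr, TMM, robust quasi-likelihood in edgeR 4.0.16 (R 4.3.3), two-sided. The common biological coefficient of variation was 0.278, with TMM factors of 0.852 for TSeL and at most 1.10 (TL+L replicate 1). CPM use these factors; intervals are 95%. Alternatives used DESeq2 1.42.0, limma 3.58.1 and other settings.

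Members and the 34 lists (694 genes, 682 matched) were chosen with earlier results of these data known. Named were the 8 smallest p per direction (no gene was called; at least 5 CPM, outside the range), up to 3 smallest p per list, neutrophil genes, and cell type markers. Other genes were chosen after their values were seen: Mki67 and Ccl3. A few genes that the rule names are not reported here.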

Additional observations from a re-analysis of the deposited data

How the results depend on the processing

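The count of 0 called genes was also 0 with DESeq2-type size factors, library totals, TMM without hair, sebaceous and muscle genes, no filter, a stricter filter, single TSeL columns, limma-voom, only the 2 groups and a 2-fold minimum. It was 1771 with DESeq2 (1063 higher, 708 lower) and 6625 with all 12 columns as separate samples (3211 higher, 3414 lower), a fit that counts near-repeats as replicates. Leaving out 1 TL+L or PBS sample gave 0 to 3132 calls, 0 to 2047 higher and 0 to 1085 lower; every call came without TL+L replicate 2.

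Genes at least 2-fold above the range numbered 382 with library totals, and 565 to 1270 with 1 sample left out; those below numbered 414 to 861. At 1.5-fold these counts were 1268 and 754, and at any distance 4615 and 3735. Neutrophil genes within the range numbered 11 to 35 with 1 sample left out. By the other measure, an interval within a 2-fold change either way, 6 were alike, among them Mxd1, which lay above the range. The neutrophil median ran from 0.35 to 0.95 over the 14 settings that changed the scaling, the filter or the samples left out or averaged. The cause was not tested.

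Directions that turned were S100a9 (-0.21 with library totals), Lcn2 (-0.11) and Coro1a (-0.13), and with 1 sample left out Hp (-0.25 to 0.084), Lcn2 (-0.029 to 0.74), S100a9 (-0.29 to 0.75) and Coro1a (-0.093 to 0.58). Of 126 named genes, 82 were called without TL+L replicate 2 (19.9% of all genes in that fit) and 75 by DESeq2 (1771 of 15791 genes). The named genes were chosen largely by small p in these same data, so these counts are no separate support. With the sample number as a replicate block 0 genes were called (1645 at an unadjusted p under 0.05), Hp stood at 0.12 and Coro1a at -0.019; the block sets TSeL with TL+L 2 and PBS 2, and no label says that a number marks a shared animal or day. The single TSeL library gives no spread of its own.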

Other observations

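Selenoproteins, which carry selenocysteine, had 8 of 22 tested genes above the TL+L range, 6 below and 8 within. The shares of all genes were 34.5%, 28.1% and 37.4%, and the selenoprotein median changed sign between settings. Selenow, a small selenoprotein abundant in muscle, had 592 CPM in TSeL, against 150, 212 and 138 CPM in TL+L, a log2 fold change of 1.83 (1.13 to 2.53, adjusted p = 0.117 by edgeR). Gpx4, which reduces lipid peroxides, had 282 CPM in TSeL, against 144, 179 and 142 CPM in TL+L. Heat shock genes were above the range for 10 of 15 (34.5% of all genes), with the cochaperone Dnajb4 at 106 CPM in TSeL, against 25.5, 49.1 and 33.3 CPM in TL+L. Of 19 antioxidant genes 9 were above and 3 below; G6pdx, the first enzyme of the pentose phosphate pathway, had 53.0 CPM in TSeL, against 172, 107 and 195 CPM in TL+L.

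Lymphocyte, dendritic cell, interferon and immediate early genes lay mostly inside the range, where 37.4% of all genes lay. Inside were 13 of 17 T and NK cell genes, 5 of 8 B and plasma cell genes and 9 of 14 dendritic cell genes. So were 13 of 18 interferon-stimulated genes and 12 of 20 immediate early genes. The interferon genes leaned low, with 5 below the range and 0 above. Of these 18, 16 had a log2 fold change below 0. Their median was -0.42, with the other sign in 1 of 14 other settings. Icos, a T cell costimulator, was above the range, with 35.5 CPM in TSeL, against 25.7, 25.4 and 18.4 CPM in TL+L. Isg15, a ubiquitin-like interferon product, was below it, with 14.6 CPM in TSeL, against 18.2, 29.9 and 19.1 CPM in TL+L. Blood vessel genes were above the range for 8 of 17 and within it for 9, against 34.5% and 37.4% of all genes. Of 18 sebaceous gland genes 9 were below (28.1% of all genes). Scd1, a fatty acid desaturase, had 631 CPM in TSeL, against 1225, 961 and 1206 CPM in TL+L. Of 17 stress keratin and antimicrobial genes 3 were below and 4 above, and of 18 matrix-degrading genes 2 were below. Ribosomal protein genes were within for 18 of 20, and haemoglobin and other red cell genes above for 4 of 5.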
